A study of Mus musculus with 27 samples.

Results

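The ligands and receptors of the tumour necrosis factor (TNF) superfamily were followed in cultured mouse microglia, the resident macrophages of the brain. Members were the genes named Tnf, Lta, Ltb, Ltbr, Fas, Cd27, Cd70 or Ngfr, or with a symbol starting with Tnfsf or Tnfrsf, Cd40 not being included. The rule found 37 of the 23995 genes in the table: 13 ligands, 23 receptors and 1 antisense RNA, and no row was named Cd70. Tests were run on the 31 of them (11 ligands and 20 receptors) that reached 10 normalised counts in 3 or more libraries. Microglia were shaken off mixed glial cultures of neonatal cortex and RNA was sequenced in 27 libraries. Wild-type cells came from C57BL/6J mice, and the CB2-/- cells from the strain labelled B6.Cg-Cnr2tm1Zim, made to lack the cannabinoid receptor CB2, which Cnr2 encodes. Either genotype was kept without stimulus or given one of 3 stimuli for 16 h: LPS at 100 ng/ml together with IFN-γ at 20 ng/ml, PolyI:C, and CpG at 1 nmol/ml. LPS, PolyI:C and CpG engage Toll-like receptors 4, 3 and 9, and IFN-γ its own receptor. Unstimulated wild-type cells had 6 libraries and each of the 7 remaining groups had 3. Whether libraries of a group came from separate animals or cultures is not in the labels, so p-values reflect the spread of these libraries alone.

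Ligands of the TNF superfamily are mostly trimeric membrane proteins, some of them shed, that cluster their receptors on the same or a neighbouring cell. Receptors with a death domain can recruit caspases, while most others bind TRAF adaptors and switch on NF-κB, and some lack signalling domains and act as decoys. Microglia are a main source of TNF in inflamed brain tissue, and TNF, through its receptors Tnfrsf1a and Tnfrsf1b, acts on neurons, astrocytes and the microglia themselves.

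Values are normalised counts as deposited, which are not corrected for gene length, so levels are compared between libraries and not between genes. The sum per library ran from 6341299 to 14151982. Library numbers form 2 series: numbers 3012 to 3023 went to the stimulated wild-type libraries and unstimulated wild-type replicates 1 to 3, and all CB2-/- libraries and unstimulated wild-type replicates 4 to 6 are numbered 2048 to 2188. The controls of the wild-type responses were therefore replicates 1 to 3, and the comparison of genotypes without stimulus rests on replicates 4 to 6. Values given against replicates 4 to 6 are an alternative. In them the wild-type response crosses the 2 number series, so that it holds any difference between the series. For stimulated cells genotype and series are the same split, so a difference between genotypes and one between series that acts on stimulated cells cannot be told apart. Cnr2 had 217 to 454 normalised counts in the libraries labelled CB2-/-, against 172 to 233 in unstimulated wild-type libraries. In the 9 stimulated wild-type libraries it had 0 to 21.96, against 217 to 412 in the 9 stimulated libraries labelled CB2-/-, so its level did not follow the labelled genotype. A value per gene checks nothing where reads fall outside the deleted part, so every direction between genotypes given here rests on the labels. All 9 microglia and macrophage markers were in the table, with a sum of 29566 to 107968. In unstimulated wild-type cells it was 89445 to 107968 in replicates 1 to 3 and 55327 to 69087 in replicates 4 to 6. Unstimulated CB2-/- libraries had 53797 to 57959. Wild-type and CB2-/- libraries had 47815 to 49293 and 29566 to 31887 with LPS and IFN-γ, and 55739 to 61024 and 33838 to 34591 with CpG. With PolyI:C the genotypes overlapped (42749 to 58350 and 42013 to 44433). Summed markers of astrocytes (8 genes) and of fibroblasts and meninges (6 genes) were 50.7 to 2413 and 12.1 to 2891, and among wild-type libraries were lowest in replicate 1 of 3 groups (unstimulated, PolyI:C and CpG). With LPS and IFN-γ these sums were 697 to 851 and 527 to 821 in wild-type libraries, against 174 to 275 and 40.4 to 67.3 in CB2-/- ones. Unstimulated wild-type replicates 4 to 6 had 1474 to 2413 and 691 to 2475, against 146 to 227 and 58.3 to 93.4 in CB2-/- libraries. With PolyI:C and CpG the ranges of the genotypes overlapped only through wild-type replicate 1. With PolyI:C, wild-type replicates 2 and 3 had 485 and 565 for astrocytes and 905 and 789 for fibroblasts. CB2-/- libraries had 166 to 251 and 29.7 to 95.3. With CpG the same wild-type replicates had 850 and 1343 and 1232 and 2111, against 131 to 167 and 27.4 to 60.4. Lymphocyte markers (3 of 7 in the table) summed to at most 70.2, those of the oligodendrocyte lineage (7 genes) to 195 to 1077 and of endothelium (3 of 5) to 59.8 to 1339. Neutrophil markers (3 of 5) summed to 191 to 377 in wild-type PolyI:C and CpG libraries and to at most 70.2 in all others, with S100a9 and Mpo listed at 0 in those wild-type groups; the part of any of these cells in the results was not tested. A further 3 gene models (Gm19220, Gm26822 and Grip2) took up to 50.8% of the sum in series 2048 to 2188 and over 5% in 8 libraries. In bulk RNA, fewer cells of a type and less RNA per cell cannot be told apart.

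In wild-type cells, each stimulus moved members of the family in both directions. LPS and IFN-γ gave 13 of 31 members higher and 9 lower at an adjusted p under 0.05 (limma, Benjamini-Hochberg over 14668 genes), while 21.7% and 18% of all genes tested were called in these directions, 39.7% in all. With PolyI:C 13 members were higher and 8 lower, against 21.2% and 19.9% of all genes (41.1% in all). With CpG 9 were higher and 10 lower, against 16.5% and 19.6% (36% in all). The median log2 fold change of the 31 members was 1.00 with LPS and IFN-γ, 0.50 with PolyI:C and 0.04 with CpG, and that of all genes 0.05, -0.06 and -0.09. By role, of 11 ligands, 5 were higher and 4 lower with LPS and IFN-γ, 6 and 5 after PolyI:C, and 2 and 7 with CpG. Of 20 receptors, 8 were higher and 5 lower with LPS and IFN-γ, 7 and 3 after PolyI:C, and 7 and 3 with CpG. The 3 comparisons share their unstimulated libraries. Lta, Tnfsf15 and Tnfsf8 reached 10 normalised counts in stimulated libraries alone (11, 9 and 8 libraries), and Tnfsf13 almost only in unstimulated wild-type ones. Their higher and lower calls in these counts therefore follow in part from the filter.

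In the libraries labelled CB2-/-, LPS and IFN-γ gave 11 members higher and 6 lower (12.8% and 10.9% of all genes, 23.7% in all), and CpG gave 8 higher and 7 lower (6.82% and 7.44%, 14.3% in all). With PolyI:C 7 members were higher and 0 lower by limma (5.11% and 3.44% of all genes, 8.55% in all), and 2 were lower at an unadjusted p under 0.05. Median log2 fold changes of the members were 0.39, 0.21 and -0.27 with LPS and IFN-γ, PolyI:C and CpG, against 0.03, 0.01 and 0.00 for all genes. Without the 8 libraries over 5% in the 3 gene models, which leaves 1 or 2 libraries in each CB2-/- group, 3 and 9 members were called with PolyI:C and CpG. The LPS group was left with 1 library, so no count is given for it. The share of all genes called under this setting was not computed.

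**Figure D1:**
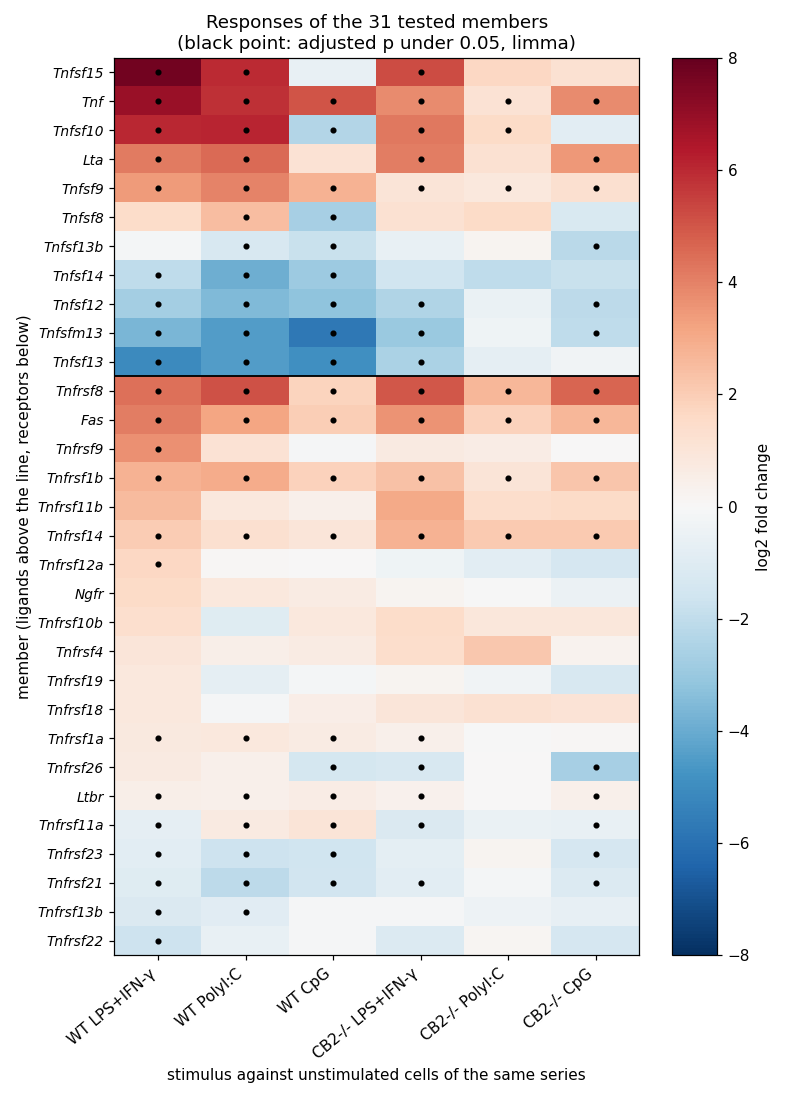
Log2 fold change of the 31 tested members (rows, ligands above the line and receptors below) in the 6 comparisons of a stimulus with unstimulated cells (columns); a black point marks an adjusted p under 0.05 (limma). Tnf stands at 6.92 in the wild-type column of LPS and IFN-γ, and the PolyI:C column of CB2-/- cells holds 7 points, all of higher members.

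Promoters are shown for members that the next paragraphs describe: Tnf, the neighbouring receptor genes Tnfrsf1b and Tnfrsf8, and Tnfrsf9. Sequences are from RefSeq (GRCm38.p6), 250 bases before to 50 after the start of the transcript, and entries were found for 30 of 37 members. Capitals mark the letters of 3 consensus words searched on both strands: the degenerate NF-κB consensus, the interferon-stimulated response element (ISRE, TTTCNNTTTC) and the interferon-γ activated site (GAS, TTCNNNGAA).
Tnf, chr17:35201958-35202257, minus strand: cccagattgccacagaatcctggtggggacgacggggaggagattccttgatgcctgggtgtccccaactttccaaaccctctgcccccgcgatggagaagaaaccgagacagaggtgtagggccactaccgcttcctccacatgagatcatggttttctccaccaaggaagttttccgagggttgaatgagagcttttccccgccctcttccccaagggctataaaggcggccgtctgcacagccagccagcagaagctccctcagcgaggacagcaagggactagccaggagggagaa
Tnfrsf1b, chr4:145246821-145247120, minus strand: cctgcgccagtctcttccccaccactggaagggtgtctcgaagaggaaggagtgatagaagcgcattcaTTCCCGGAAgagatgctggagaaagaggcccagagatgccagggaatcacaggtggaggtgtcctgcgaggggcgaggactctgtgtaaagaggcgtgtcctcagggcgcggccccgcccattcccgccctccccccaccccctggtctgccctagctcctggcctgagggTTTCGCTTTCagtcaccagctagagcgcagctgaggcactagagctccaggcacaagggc
Tnfrsf8, chr4:145315115-145315414, minus strand: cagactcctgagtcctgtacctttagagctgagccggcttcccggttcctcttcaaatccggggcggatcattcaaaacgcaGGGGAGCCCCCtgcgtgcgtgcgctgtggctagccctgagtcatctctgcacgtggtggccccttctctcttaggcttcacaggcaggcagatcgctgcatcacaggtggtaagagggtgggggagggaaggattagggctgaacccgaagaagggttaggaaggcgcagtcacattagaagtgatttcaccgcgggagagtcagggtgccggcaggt
Tnfrsf9, second start, chr4:150927749-150928048, plus strand: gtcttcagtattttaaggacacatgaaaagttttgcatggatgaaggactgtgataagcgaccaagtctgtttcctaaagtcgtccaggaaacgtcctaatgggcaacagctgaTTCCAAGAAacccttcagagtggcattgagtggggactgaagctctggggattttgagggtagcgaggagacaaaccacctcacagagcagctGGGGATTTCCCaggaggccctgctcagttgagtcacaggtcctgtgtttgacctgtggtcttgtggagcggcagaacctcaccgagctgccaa
In the Tnf window none of the 3 words was found. Tnfrsf1b held an ISRE word ending at the start of the transcript (-10 to -1) and a GAS word at -181 to -173. Tnfrsf8 held a pair of overlapping NF-κB words (-168 to -158), as did the second start of Tnfrsf9 (-43 to -33), where a GAS word lay at -136 to -128; the first start of Tnfrsf9 held none. Among all 32851 promoters of this length, 8.46% held the NF-κB word, 3.44% the ISRE word and 8.3% the GAS word. Of the 30 members, 4 held the NF-κB word (also Ltb and Tnfrsf25), 3 the ISRE word (also Tnfrsf14 and Tnfsf13b) and 9 the GAS word in at least 1 promoter. No match printed here overlaps a match to another of the 3 words. These are matches of letters, not measured binding.

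Tnf (chromosome 17, 35199381 to 35202007, minus strand, GRCm38) encodes the founding cytokine of the family. In wild-type cells it stood at 129, 81.3 and 72.5 in unstimulated replicates 1 to 3, 93.6, 68.0 and 71.8 in unstimulated replicates 4 to 6, 11894, 11751 and 10030.2 after LPS and IFN-γ, 3933, 6276 and 6245 after PolyI:C and 2151, 3621 and 3716 after CpG. In the libraries labelled CB2-/- it stood at 228, 226 and 179 without stimulus, 2888, 2966 and 2740.3 after LPS and IFN-γ, 477, 466 and 453 after PolyI:C and 2976, 2919 and 2709 after CpG. Every stimulated library lay above every unstimulated library of its genotype. Among stimulated cells, the CB2-/- libraries lay below every wild-type library with LPS and IFN-γ and with PolyI:C, and between the lowest and the highest wild-type library with CpG. In wild-type cells Tnf rose by 6.92 ± 0.21, 5.86 ± 0.21 and 5.06 ± 0.21 (log2 fold change with its SE, from log2(value + 1), n = 3 a group) with LPS and IFN-γ, PolyI:C and CpG, the largest limma adjusted p being 2.77e-15. Tnf in CB2-/- cells rose by 3.77 ± 0.21, 1.15 ± 0.21 and 3.77 ± 0.21, with adjusted p of 1.08e-12, 6.14e-04 and 1.63e-12. The rise was smaller in CB2-/- cells for each stimulus, the difference (CB2-/- minus wild type) being -3.16 ± 0.29, -4.72 ± 0.29 and -1.29 ± 0.29 (limma adjusted p 6.20e-08, 2.27e-11 and 0.00414). Without stimulus Tnf was higher in all 3 CB2-/- libraries than in all 6 wild-type libraries (1.43 ± 0.21, limma adjusted p = 3.78e-05). Against unstimulated wild-type replicates 4 to 6 the differences were -3.40 ± 0.26, -4.96 ± 0.26 and -1.53 ± 0.26. These replicates share the number series of the CB2-/- cells but not that of the stimulated wild-type cells. Astrocyte markers summed to 1474 to 2413 in wild-type replicates 4 to 6 and to 146 to 227 in unstimulated CB2-/- libraries, and their part in the unstimulated difference was not tested.

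Tnfsf10 (chromosome 3, 27317028 to 27342427, plus strand) encodes TRAIL, a ligand of death receptors. Wild-type libraries held 9.02, 12.5 and 12.5 in unstimulated replicates 1 to 3, 4.42, 8.91 and 12.8 in unstimulated replicates 4 to 6, 639, 783 and 1076 after LPS and IFN-γ, 749, 845 and 952 after PolyI:C and 0, 4.53 and 1.56 after CpG. CB2-/- libraries held 36.1, 60.1 and 26.6 without stimulus, 719, 711 and 784 after LPS and IFN-γ, 128, 92.5 and 119 after PolyI:C and 14.0, 35.4 and 18.9 after CpG. LPS and IFN-γ brought both genotypes to a similar level, with the CB2-/- libraries inside the range of the wild-type ones, whereas with PolyI:C all CB2-/- libraries lay far below all wild-type ones. With CpG wild-type levels were lower than in replicates 1 to 3. Fitted changes in wild-type cells were 6.06 ± 0.46, 6.11 ± 0.46 and -2.34 ± 0.46 with LPS and IFN-γ, PolyI:C and CpG, the largest limma adjusted p being 2.74e-04. The wild-type CpG value, from libraries at or near 0, was -1.26 with a pseudocount of 5 and -2.76 with 0.5. With only the compared groups in the fit it did not pass (limma adjusted p = 0.0603). CB2-/- cells changed by 4.22 ± 0.46 with LPS and IFN-γ (adjusted p = 1.24e-07) and by 1.51 ± 0.46 with PolyI:C (adjusted p = 0.0413), and the value with CpG was -0.84 ± 0.46 (adjusted p = 0.29). The PolyI:C call in CB2-/- cells was lost without any 1 of unstimulated CB2-/- replicates 1 or 3 or CB2-/- PolyI:C replicates 1, 2 or 3 (1.25 to 1.65, adjusted p 0.0659 to 0.185). The PolyI:C response differed between genotypes by -4.60 ± 0.65 (limma adjusted p = 8.57e-06), and the differences for LPS and IFN-γ (-1.84 ± 0.65, adjusted p = 0.069) and CpG (1.49 ± 0.65, adjusted p = 0.148) did not pass. Against replicates 4 to 6 the LPS difference of Tnfsf10 was -2.27 ± 0.66 (adjusted p = 0.0274) and passed. Without stimulus Tnfsf10 was higher in CB2-/- cells by 2.13 ± 0.46 (adjusted p = 0.00347), with no overlap with any of the 6 wild-type libraries.

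Tnfsf15 (chromosome 4, 63727084 to 63745113, minus strand) encodes TL1A, the ligand of the death-domain receptor Tnfrsf25. In wild type it had 1.09, 6.72 and 3.69 in unstimulated replicates 1 to 3, 0, 0 and 0 in unstimulated replicates 4 to 6, 959.7, 1082 and 724 after LPS and IFN-γ, 99.1, 425 and 429 after PolyI:C and 0, 2.74 and 5.04 after CpG. In CB2-/- it had 0, 1.44 and 0 without stimulus, 52.5, 51.2 and 44.3 after LPS and IFN-γ, 1.05, 2.43 and 9.72 after PolyI:C and 3.09, 0.615 and 3.66 after CpG. It was near or at 0 in unstimulated and CpG-treated cells of both genotypes, and its LPS level in CB2-/- cells was far below every wild-type LPS library. Tnfsf15 rose in wild-type cells with LPS and IFN-γ (7.75 ± 0.74, limma adjusted p = 4.93e-09) and PolyI:C (5.96 ± 0.74, adjusted p = 3.66e-07), and with CpG the value was -0.58 ± 0.74 (adjusted p = 0.592). Tnfsf15 in CB2-/- cells rose with LPS and IFN-γ (5.22 ± 0.74, adjusted p = 6.13e-06), and the PolyI:C value was 1.65 ± 0.74 (adjusted p = 0.197). The PolyI:C response was smaller in CB2-/- cells (-4.31 ± 1.04, limma adjusted p = 0.00312). For LPS and IFN-γ the difference was -2.53 ± 1.04 (adjusted p = 0.125) against replicates 1 to 3 and passed against replicates 4 to 6 (adjusted p = 0.00384), where Tnfsf15 was listed at 0, so that no fold is given. The receptor Tnfrsf25 did not pass the filter, with at most 7.001 normalised counts in any library.

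Tnfsf9 (chromosome 17, 57105325 to 57107757, plus strand), which encodes 4-1BBL, the ligand of Tnfrsf9, differed between the library number series already in unstimulated wild-type cells. Wild-type libraries held 17.5, 16.8 and 17.3 in unstimulated replicates 1 to 3, 140.2, 128 and 119.6 in unstimulated replicates 4 to 6, 239.9, 181 and 171 after LPS and IFN-γ, 267, 284 and 294 after PolyI:C and 105, 134 and 130.3 after CpG. CB2-/- libraries held 132, 170.5 and 145 without stimulus, 283, 315 and 313 after LPS and IFN-γ, 257, 260.4 and 271 after PolyI:C and 352, 348 and 405 after CpG. Replicates 4 to 6 lay about as high as CpG-treated wild-type cells, 2.84 log2 units above replicates 1 to 3 (limma adjusted p = 1.41e-11). Against replicates 1 to 3 the fitted values in wild type were 3.43 ± 0.16, 3.96 ± 0.16 and 2.76 ± 0.16 with LPS and IFN-γ, PolyI:C and CpG, all called (largest adjusted p 9.01e-13). Against replicates 4 to 6 these values became 0.59 ± 0.15, 1.12 ± 0.15 and -0.08 ± 0.15, at an adjusted p of 0.00291, 2.29e-06 and 0.723. Tnfsf9 in CB2-/- cells rose by 1.03 ± 0.16, 0.82 ± 0.16 and 1.30 ± 0.16, the largest limma adjusted p being 0.00106. The difference between genotypes was called for each stimulus against replicates 1 to 3 (-2.40 ± 0.22, -3.14 ± 0.22 and -1.46 ± 0.22) and turned or was lost against replicates 4 to 6 (0.43 ± 0.21, -0.30 ± 0.21 and 1.38 ± 0.21, adjusted p 0.216, 0.325 and 1.14e-04). A difference between genotypes in the Tnfsf9 response therefore cannot be told apart from the number series.

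**Figure D2:**
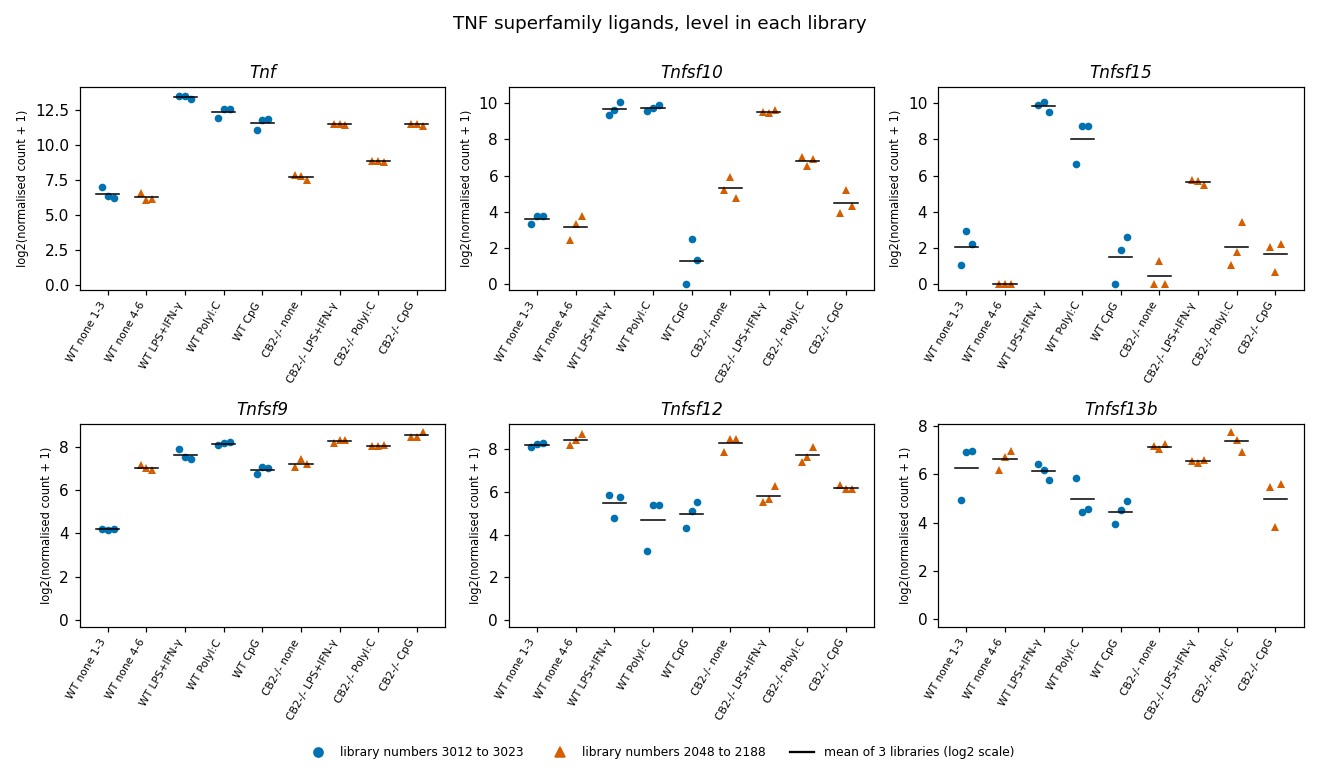
Normalised counts as log2(value + 1) of 6 ligands (vertical axes) in each library by group (horizontal axes); circles are libraries 3012 to 3023, triangles libraries 2048 to 2188, and the line is the mean of 3 libraries. Tnf, Tnfsf10 and Tnfsf15 in PolyI:C-treated CB2-/- cells lie below all wild-type PolyI:C libraries, while Tnfsf12 and Tnfsf13b there lie above them.

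Tnfsf12 (chromosome 11, 69686250 to 69695849, minus strand) encodes TWEAK, a ligand of Tnfrsf12a, and Tnfsfm13 (chromosome 11, 69682577 to 69696098, minus strand) is a readthrough of Tnfsf12 and its neighbour Tnfsf13, which encodes APRIL. Tnfsfm13 has 2235 exonic bases. Its overlaps with these genes and with the antisense Tnfsf13os sum to 1967 bases, where a base in more than 1 overlap is counted in each. The counting could therefore divide reads among them, which leaves their values uncertain. Tnfsf12 in wild type stood at 274, 301 and 308 in unstimulated replicates 1 to 3, 287, 339 and 418 in unstimulated replicates 4 to 6, 57.4, 26.2 and 52.7 after LPS and IFN-γ, 8.55, 40.7 and 40.8 after PolyI:C and 19.1, 33.5 and 44.9 after CpG. Tnfsf12 in CB2-/- cells stood at 231, 350.4 and 349.7 without stimulus, 45.1, 50.4 and 75.4 after LPS and IFN-γ, 166, 199 and 269.6 after PolyI:C and 78.3, 69.3 and 67.9 after CpG. Stimulated wild-type libraries lay below all unstimulated ones, as did CB2-/- libraries with LPS and IFN-γ or CpG, but those with PolyI:C overlapped the unstimulated ones. It fell in wild-type cells, with changes of -2.74 ± 0.42, -3.53 ± 0.42 and -3.22 ± 0.42 with LPS and IFN-γ, PolyI:C and CpG (largest limma adjusted p 9.88e-06). In CB2-/- cells the values were -2.43 ± 0.42, -0.56 ± 0.42 and -2.07 ± 0.42, at an adjusted p of 9.53e-05, 0.515 and 9.80e-04. Genotypes differed for PolyI:C (2.97 ± 0.60, adjusted p = 5.70e-04).

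Tnfsfm13 in wild type had 89.2, 142 and 102 in unstimulated replicates 1 to 3, 132, 167 and 111 in unstimulated replicates 4 to 6, 11.4, 5.53 and 6.93 after LPS and IFN-γ, 4.05, 1.24 and 9.65 after PolyI:C and 0, 0 and 8.7 after CpG. Tnfsfm13 in CB2-/- cells had 96.5, 101 and 109 without stimulus, 9.7, 16.8 and 10.97 after LPS and IFN-γ, 100.3, 69.9 and 71.2 after PolyI:C and 25.4, 25.1 and 22.03 after CpG. All stimulated libraries but those of PolyI:C-treated CB2-/- cells lay below every unstimulated library. Its changes were -3.67, -4.48 and -5.69 in wild-type cells and -2.97, -0.36 and -2.04 in CB2-/- cells, of which the PolyI:C value in CB2-/- cells did not pass (adjusted p = 0.821, limma). The wild-type CpG value, from 3 libraries of which 2 were listed at 0, depends on the pseudocount and was -4.03 with a pseudocount of 5 and -6.38 with 0.5. The CpG call in CB2-/- cells was lost without any 1 of unstimulated CB2-/- replicates 1, 2 or 3 or CB2-/- CpG replicates 1, 2 or 3 (-2.08 to -1.97, adjusted p 0.0712 to 0.0924). The PolyI:C and CpG responses differed between genotypes by 4.12 ± 0.90 and 3.65 ± 0.90 (adjusted p = 0.00126 and 0.0082). Tnfsf13 itself ran from 0 to 37.8 and was listed at 0 in all 6 LPS libraries. It reached 10 normalised counts in 6 libraries, all of them unstimulated wild-type ones but CB2-/- CpG replicate 2. It thus passed the filter mainly through the group where it was high, and a lower call in wild type follows in part from that. Its call was lower for each stimulus in wild type and for LPS and IFN-γ in CB2-/- cells, with adjusted p of 3.30e-05, 1.70e-04, 7.69e-05 and 0.0357. The last was lost without any 1 of unstimulated CB2-/- replicates 1 or 2 or CB2-/- LPS replicates 1, 2 or 3 (adjusted p 0.0608 to 0.153).

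Tnfsf13b (chromosome 8, 10006467 to 10039072, plus strand) encodes BAFF, a B-cell survival factor. Wild-type values were 29.5, 118 and 123 in unstimulated replicates 1 to 3, 71.5, 104 and 121 in unstimulated replicates 4 to 6, 85.7, 70.0 and 52.4 after LPS and IFN-γ, 56.9, 20.8 and 22.7 after PolyI:C and 14.3, 21.8 and 28.9 after CpG. CB2-/- values were 141, 131 and 148 without stimulus, 90.9, 87.5 and 94.1 after LPS and IFN-γ, 213, 169 and 119 after PolyI:C and 43.5, 13.3 and 47.8 after CpG. In CB2-/- cells the CpG libraries lay below all others, and in wild type they overlapped the PolyI:C libraries and lay below every unstimulated library. It fell with CpG in wild-type (-1.81 ± 0.49, limma adjusted p = 0.00536) and CB2-/- cells (-2.17 ± 0.49, adjusted p = 0.00278). With PolyI:C the wild-type fall (-1.30 ± 0.49, adjusted p = 0.0366) was lost without any 1 of unstimulated wild-type replicates 2 or 3 or wild-type PolyI:C replicates 2 or 3 (-1.11 to -0.96, adjusted p 0.123 to 0.176). LPS and IFN-γ gave -0.15 ± 0.49 and -0.62 ± 0.49 in wild-type and CB2-/- cells (adjusted p = 0.843 and 0.434). The PolyI:C difference between genotypes was 1.51 ± 0.69 (adjusted p = 0.121) against replicates 1 to 3 and 1.87 ± 0.60 (adjusted p = 0.0241) against replicates 4 to 6, and so passed only against the second set.

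The other ligands had low values. Lta, which encodes lymphotoxin-α and lies next to Tnf (chromosome 17, 35203165 to 35205351, minus strand), was listed at 0 in all 9 unstimulated libraries. In wild type it was 18.3, 24.3 and 10.2 after LPS and IFN-γ, 16.5, 28.9 and 23.2 after PolyI:C and 0, 2.74 and 1.89 after CpG. Lta in CB2-/- cells was 11.9, 21.96 and 15.5 after LPS and IFN-γ, 3.15, 0 and 1.85 after PolyI:C and 7.46, 12.3 and 10.99 after CpG. The LPS libraries of both genotypes, the wild-type PolyI:C libraries and the CB2-/- CpG libraries lay above all others. It was called higher with LPS and IFN-γ and with PolyI:C in wild type and with LPS and IFN-γ and with CpG in CB2-/- cells (limma adjusted p 5.06e-06, 1.27e-06, 1.30e-05 and 1.84e-04). No fold is given against a group at 0. Tnfsf14, which encodes LIGHT, a ligand of Tnfrsf14 and Ltbr, ran from 0 to 47.1 and was lower with LPS and IFN-γ, PolyI:C and CpG in wild type (-2.03, -3.90 and -2.90, adjusted p 0.0359, 1.85e-04 and 0.00414), the LPS call being lost without any 1 of unstimulated wild-type replicates 2 or 3 or wild-type LPS replicates 2 or 3 (-2.02 to -1.73, adjusted p 0.0712 to 0.126). Tnfsf8, which encodes CD30L, the ligand of Tnfrsf8, held 4.37, 6.72 and 5.16 in unstimulated replicates 1 to 3, 21.7, 12.9 and 16.6 with LPS and IFN-γ and 21.2, 37.5 and 49.3 with PolyI:C in wild type. It rose with PolyI:C in wild type (2.47, adjusted p = 0.00251) and was listed at 0 in all 3 CpG libraries (called lower, adjusted p = 0.00155 against replicates 1 to 3 and 0.199 against replicates 4 to 6). With LPS and IFN-γ the value was 1.48 (adjusted p = 0.0637) and 3.07 ± 0.64 (adjusted p = 5.13e-04) against the same controls in turn, and the PolyI:C difference between genotypes was -0.96 (adjusted p = 0.484) and -2.55 ± 0.91 (adjusted p = 0.041).

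Among the receptors, both TNF receptors responded. Tnfrsf1b (chromosome 4, 145213463 to 145246870, minus strand) encodes TNFR2, which binds TRAF adaptors. It stood in wild-type cells at 4401, 3723 and 3851 in unstimulated replicates 1 to 3, 4007, 4169 and 4401 in unstimulated replicates 4 to 6, 27294, 26658 and 27791 after LPS and IFN-γ, 25296, 34398 and 35651 after PolyI:C and 10556, 16844 and 17012 after CpG. Tnfrsf1b in CB2-/- cells stood at 3881, 4321 and 4135 without stimulus, 19861, 21474 and 21293 after LPS and IFN-γ, 8388, 8785 and 8413 after PolyI:C and 19675, 18991 and 19254 after CpG. Unstimulated levels overlapped between genotypes, every stimulated library lay above them, and the PolyI:C libraries labelled CB2-/- lay below every other stimulated library. Tnfrsf1b rose in wild-type cells by 2.77 ± 0.14, 2.98 ± 0.14 and 1.86 ± 0.14 with LPS and IFN-γ, PolyI:C and CpG (largest limma adjusted p 1.18e-10). Tnfrsf1b in CB2-/- cells rose by 2.34 ± 0.14, 1.05 ± 0.14 and 2.23 ± 0.14 (largest adjusted p 1.63e-05). The PolyI:C rise was smaller in CB2-/- cells (-1.93 ± 0.20, adjusted p = 6.86e-08), and the differences for LPS and IFN-γ (-0.43 ± 0.20) and CpG (0.37 ± 0.20) did not pass (adjusted p = 0.174 and 0.246).

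Tnfrsf1a (chromosome 6, 125349362 to 125362484, plus strand) encodes TNFR1, the death-domain receptor of TNF. Wild-type libraries held 1454, 1533 and 1301 in unstimulated replicates 1 to 3, 1152, 1068 and 1118 in unstimulated replicates 4 to 6, 2349, 2393 and 2582 after LPS and IFN-γ, 2232, 2688 and 2833 after PolyI:C and 2141, 2377 and 2358 after CpG. CB2-/- libraries held 1348, 1378 and 1254 without stimulus, 1657, 1755 and 1815 after LPS and IFN-γ, 1354, 1349 and 1187 after PolyI:C and 1315, 1396 and 1471 after CpG. Stimulated wild-type libraries lay above all others, and the CB2-/- libraries with PolyI:C or CpG overlapped the unstimulated ones. Its rise in wild-type cells was 0.77 ± 0.09, 0.85 ± 0.09 and 0.68 ± 0.09 with LPS and IFN-γ, PolyI:C and CpG (largest limma adjusted p 2.80e-06). Tnfrsf1a in CB2-/- cells rose with LPS and IFN-γ (0.39 ± 0.09, adjusted p = 0.00273), and values with PolyI:C and CpG were -0.03 ± 0.09 and 0.07 ± 0.09 (adjusted p = 0.892 and 0.748). The response was smaller in CB2-/- cells with PolyI:C (-0.88 ± 0.13, adjusted p = 1.86e-05) and CpG (-0.61 ± 0.13, adjusted p = 0.00312). For LPS and IFN-γ the difference was -0.38 ± 0.13 (adjusted p = 0.0633) against replicates 1 to 3 and -0.74 ± 0.13 (adjusted p = 4.65e-04) against replicates 4 to 6. Changes of this size depend on the scaling: with quantile scaling the LPS value was 0.15 in wild type (adjusted p = 0.226) and the PolyI:C difference -0.37 (adjusted p = 0.0531).

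Fas (chromosome 19, 34290666 to 34327772, plus strand) encodes the death receptor CD95. In wild-type cells it had 53.7, 60.8 and 41.1 in unstimulated replicates 1 to 3, 41.1, 13.03 and 28.8 in unstimulated replicates 4 to 6, 957, 881 and 864 after LPS and IFN-γ, 377, 538 and 501 after PolyI:C and 144, 266 and 221 after CpG. Fas in CB2-/- cells had 53.2, 31.8 and 35.0 without stimulus, 488, 468 and 493 after LPS and IFN-γ, 110.1, 145 and 178 after PolyI:C and 281, 225 and 236 after CpG. Stimulated and unstimulated libraries did not overlap in either genotype, LPS and IFN-γ gave the highest levels in both, and with PolyI:C the CB2-/- libraries lay below the wild-type ones. Fas rose by 4.11 ± 0.30, 3.16 ± 0.30 and 1.97 ± 0.30 in wild-type cells (largest limma adjusted p 1.07e-05) and by 3.60 ± 0.30, 1.83 ± 0.30 and 2.63 ± 0.30 in CB2-/- cells (largest adjusted p 2.33e-04). The PolyI:C difference between genotypes (-1.33 ± 0.42, adjusted p = 0.0225) was lost without any 1 of unstimulated wild-type replicate 3, wild-type PolyI:C replicate 2, unstimulated CB2-/- replicate 1 or CB2-/- PolyI:C replicate 1 (-1.23 to -1.11, adjusted p 0.0567 to 0.0736), and was -2.33 ± 0.42 (adjusted p = 2.38e-04) against replicates 4 to 6. For LPS and IFN-γ the difference was -0.51 ± 0.42 (adjusted p = 0.523), and -1.52 ± 0.42 (adjusted p = 0.0215) against replicates 4 to 6.

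Tnfrsf8 (chromosome 4, 145267137 to 145315164, minus strand) encodes CD30, a TRAF-binding receptor better known from activated lymphocytes, and lies next to Tnfrsf1b. Wild type showed 13.7, 3.51 and 3.29 in unstimulated replicates 1 to 3, 4.4, 2.09 and 4.62 in unstimulated replicates 4 to 6, 142, 145 and 138 after LPS and IFN-γ, 157, 265 and 268 after PolyI:C and 4.32, 48.9 and 43.6 after CpG. CB2-/- cells showed 6.65, 18.5 and 6.92 without stimulus, 339, 337 and 328 after LPS and IFN-γ, 60.3, 72.3 and 61.9 after PolyI:C and 268, 262 and 259 after CpG. With LPS and IFN-γ or CpG the CB2-/- libraries exceeded all wild-type ones, and with PolyI:C they lay below them. Wild-type CpG replicate 1 lay within the range of unstimulated libraries, whose highest was replicate 1. In wild-type cells Tnfrsf8 rose by 4.44 ± 0.60 and 5.09 ± 0.60 with LPS and IFN-γ and PolyI:C (limma adjusted p 1.39e-06 and 1.60e-07). With CpG it rose by 1.79 ± 0.60 (adjusted p = 0.0209), a call lost without any 1 of unstimulated wild-type replicates 2 or 3 or wild-type CpG replicates 2 or 3 (1.23 to 1.52, adjusted p 0.0813 to 0.139). Tnfrsf8 in CB2-/- cells rose by 4.99 ± 0.60, 2.63 ± 0.60 and 4.64 ± 0.60 (largest adjusted p 0.00547). The PolyI:C rise was smaller in CB2-/- cells (-2.46 ± 0.84, adjusted p = 0.0346), a call lost without any 1 of unstimulated wild-type replicates 2 or 3, wild-type PolyI:C replicates 2 or 3, unstimulated CB2-/- replicate 2 or CB2-/- PolyI:C replicates 1 or 3 (-2.43 to -2.02, adjusted p 0.0593 to 0.107). The CpG rise was larger (2.85 ± 0.84, adjusted p = 0.0283), a call lost without any 1 of unstimulated wild-type replicate 1, wild-type CpG replicate 1, unstimulated CB2-/- replicates 1 or 3 or CB2-/- CpG replicates 1, 2 or 3 (adjusted p 0.0547 to 0.0959). Without the 3 wild-type libraries lowest in astrocyte markers, CpG replicate 1 among them, the CpG difference was 1.22 (adjusted p = 0.112), and against replicates 4 to 6 it was 2.31 ± 0.79 (adjusted p = 0.0541).

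Tnfrsf14 (chromosome 4, 154921933 to 154928563, minus strand) encodes HVEM, the receptor of LIGHT. Its wild-type values were 195, 90.6 and 146 in unstimulated replicates 1 to 3, 97.8, 191 and 197 in unstimulated replicates 4 to 6, 561, 574 and 588 after LPS and IFN-γ, 354, 329 and 304 after PolyI:C and 339.8, 208 and 284 after CpG. Its CB2-/- values were 53.7, 71.9 and 135 without stimulus, 458, 562 and 656 after LPS and IFN-γ, 178, 746 and 320.2 after PolyI:C and 334, 311 and 406 after CpG. Stimulated libraries lay above all unstimulated ones of the same genotype, and PolyI:C-treated CB2-/- cells spread most. Tnfrsf14 rose with LPS and IFN-γ in wild-type (2.06 ± 0.38, limma adjusted p = 1.13e-04) and CB2-/- cells (2.76 ± 0.38, adjusted p = 4.82e-06). Tnfrsf14 in CB2-/- cells also rose with PolyI:C (2.10 ± 0.38, adjusted p = 7.22e-04) and CpG (2.10 ± 0.38, adjusted p = 2.93e-04). The PolyI:C call in CB2-/- cells was lost with only the compared groups in the fit (limma adjusted p = 0.0699). Its highest library, replicate 2 (746), had 50.8% of its sum in the 3 gene models. The wild-type PolyI:C call (1.25 ± 0.38, adjusted p = 0.0106) was lost without unstimulated wild-type replicate 2 (0.96, adjusted p = 0.074), and the CpG call (0.98 ± 0.38, adjusted p = 0.0483) without any 1 of unstimulated wild-type replicates 2, 3, 5 or 6 or wild-type CpG replicates 1 or 3 (0.68 to 1.03, adjusted p 0.0504 to 0.218). Against replicates 4 to 6 the CpG value was 0.81 ± 0.38 (adjusted p = 0.0942). No difference between genotypes passed, the values being 0.71 ± 0.54, 0.85 ± 0.54 and 1.12 ± 0.54.

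Tnfrsf11a (chromosome 1, 105780718 to 105847981, plus strand) encodes RANK, the receptor of the osteoclast factor RANKL. Wild-type levels were 728, 484 and 571 in unstimulated replicates 1 to 3, 669, 708 and 601 in unstimulated replicates 4 to 6, 329, 354 and 405 after LPS and IFN-γ, 1315, 859 and 821 after PolyI:C and 1601, 1054 and 1044 after CpG. CB2-/- levels were 676, 643 and 639 without stimulus, 323, 251 and 295 after LPS and IFN-γ, 425, 517 and 404 after PolyI:C and 443, 414 and 427 after CpG. Wild-type LPS libraries lay below all unstimulated ones and the PolyI:C and CpG libraries above them, whereas all stimulated CB2-/- libraries lay below the unstimulated ones. The changes in wild type were -0.70 ± 0.18, 0.73 ± 0.18 and 1.04 ± 0.18 with LPS and IFN-γ, PolyI:C and CpG (limma adjusted p 0.00284, 0.00172 and 5.26e-05). CB2-/- cells gave -1.18 ± 0.18, -0.55 ± 0.18 and -0.61 ± 0.18 (adjusted p 1.64e-05, 0.058 and 0.0209). The CpG call in CB2-/- cells was lost without any 1 of unstimulated CB2-/- replicates 1, 2 or 3 or CB2-/- CpG replicates 2 or 3 (-0.62 to -0.58, adjusted p 0.0505 to 0.0703). Genotypes differed with PolyI:C (-1.28 ± 0.25, adjusted p = 4.47e-04) and CpG (-1.65 ± 0.25, adjusted p = 9.37e-05), and without the 3 wild-type libraries lowest in astrocyte markers these values were -1.22 and -1.60.

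**Figure D3:**
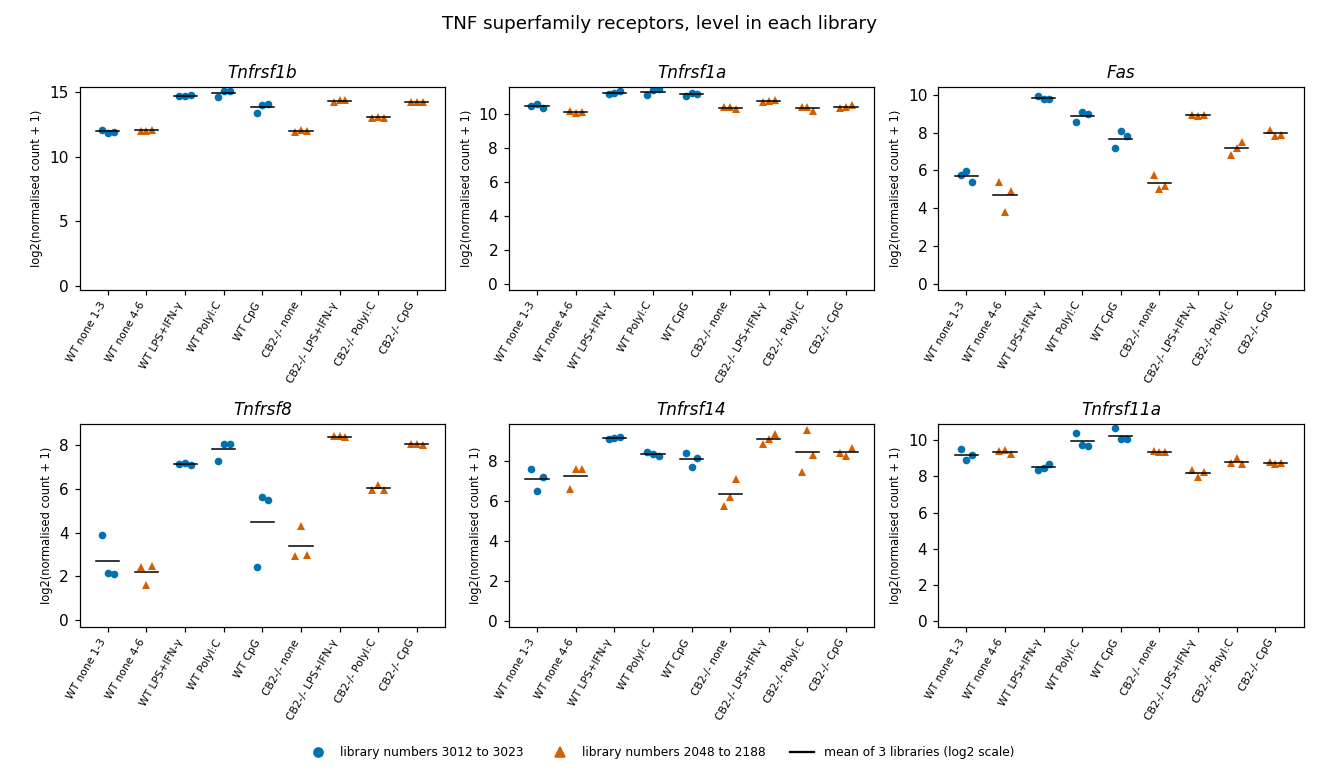
Normalised counts as log2(value + 1) of 6 receptors (vertical axes) in each library by group (horizontal axes), marked as for the ligands. Tnfrsf1b, Fas and Tnfrsf8 stand above the unstimulated cells in nearly every stimulated library and are lower in CB2-/- than in wild-type cells with PolyI:C; Tnfrsf11a moves up with PolyI:C and CpG in wild-type cells only.

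Ltbr (chromosome 6, 125306571 to 125313885, minus strand) encodes the lymphotoxin-β receptor, which feeds the noncanonical NF-κB pathway. Wild-type cells had 766, 713 and 645 in unstimulated replicates 1 to 3, 693, 487 and 655 in unstimulated replicates 4 to 6, 960.3, 952 and 975 after LPS and IFN-γ, 810.4, 963 and 990.4 after PolyI:C and 1042, 1027 and 1145 after CpG. CB2-/- cells had 732, 797 and 714 without stimulus, 964, 979.7 and 921 after LPS and IFN-γ, 827, 764 and 709 after PolyI:C and 1054, 929 and 945 after CpG. Stimulated wild-type libraries lay above all unstimulated ones, and PolyI:C-treated CB2-/- libraries overlapped the unstimulated ones. Its changes in wild type were 0.45 ± 0.11, 0.38 ± 0.11 and 0.60 ± 0.11 (limma adjusted p 0.00297, 0.0102 and 1.99e-04), and in CB2-/- cells 0.35 ± 0.11, 0.03 ± 0.11 and 0.38 ± 0.11 (adjusted p 0.0257, 0.916 and 0.0239). Quantile scaling brought the LPS and PolyI:C values in wild type to 0.11 and 0.05, which did not pass. The PolyI:C difference between genotypes was -0.34 ± 0.16 (adjusted p = 0.134) against replicates 1 to 3 and -0.57 ± 0.16 (adjusted p = 0.012) against replicates 4 to 6. The PolyI:C call in wild type was also lost without any 1 of unstimulated wild-type replicate 3 or wild-type PolyI:C replicate 3 (0.31 to 0.32, adjusted p 0.0531 to 0.059), and in CB2-/- cells the LPS call without any 1 of unstimulated CB2-/- replicates 1 or 3 or CB2-/- LPS replicates 1 or 2 (0.32 to 0.35, adjusted p 0.0712 to 0.0935) and the CpG call without any 1 of unstimulated CB2-/- replicates 1 or 3 or CB2-/- CpG replicate 1 (0.33 to 0.37, adjusted p 0.0759 to 0.121).

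Tnfrsf21 (chromosome 17, 43016555 to 43089189, plus strand) encodes the death-domain receptor DR6. Wild-type libraries had 599, 725 and 646 in unstimulated replicates 1 to 3, 398, 421 and 435 in unstimulated replicates 4 to 6, 349.9, 399 and 260.0 after LPS and IFN-γ, 80.2, 199 and 226 after PolyI:C and 188, 247 and 246 after CpG. CB2-/- libraries had 391, 493 and 473 without stimulus, 231, 251 and 257 after LPS and IFN-γ, 404, 382 and 427 after PolyI:C and 185, 212 and 235 after CpG. Stimulated wild-type libraries lay below replicates 1 to 3, and in CB2-/- cells LPS and IFN-γ and CpG gave levels below the unstimulated ones while PolyI:C overlapped them. It fell in wild type, with changes of -0.98 ± 0.24, -2.08 ± 0.24 and -1.54 ± 0.24 (limma adjusted p 0.00224, 1.60e-07 and 2.07e-05), and against replicates 4 to 6 the LPS value was -0.34 ± 0.25 (adjusted p = 0.316). CB2-/- cells gave -0.87 ± 0.24, -0.15 ± 0.24 and -1.10 ± 0.24 (adjusted p 0.0101, 0.796 and 0.00225). Genotypes differed with PolyI:C by 1.93 ± 0.34 (adjusted p = 1.59e-04).

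Tnfrsf12a (chromosome 17, 23675445 to 23677468, minus strand) encodes Fn14, the receptor of TWEAK, and Tnfrsf13b (chromosome 11, 61126755 to 61149372, plus strand) encodes TACI, a receptor of BAFF and APRIL. Tnfrsf12a in wild type had 33.5, 186 and 66.4 in unstimulated replicates 1 to 3, 91.1, 69.6 and 69.1 in unstimulated replicates 4 to 6, 213, 239 and 259 after LPS and IFN-γ, 39.8, 114 and 108 after PolyI:C and 21.6, 139 and 148 after CpG. Tnfrsf12a in CB2-/- cells had 166, 172 and 116 without stimulus, 118, 133 and 107 after LPS and IFN-γ, 154, 60.3 and 57.7 after PolyI:C and 58.9, 51.2 and 66.9 after CpG. LPS and IFN-γ gave the highest wild-type levels, and the 3 libraries lowest in astrocyte and fibroblast markers (replicate 1 without stimulus, with PolyI:C and with CpG) were each the lowest of their group. The LPS rise in wild type (1.64 ± 0.58, limma adjusted p = 0.0265) was lost without any 1 of unstimulated wild-type replicates 1 or 3 or wild-type LPS replicates 2 or 3 (1.08 to 1.64, adjusted p 0.0603 to 0.183); no other response passed. Tnfrsf13b in wild type had 157, 164 and 106 in unstimulated replicates 1 to 3, 129, 173 and 221 in unstimulated replicates 4 to 6, 64.5, 79.4 and 47.5 after LPS and IFN-γ, 69.3, 85.3 and 68.5 after PolyI:C and 168, 102 and 125 after CpG. Tnfrsf13b in CB2-/- cells had 119.9, 176 and 90.4 without stimulus, 135, 108 and 102 after LPS and IFN-γ, 162, 72.6 and 71.7 after PolyI:C and 83.8, 83.6 and 66.8 after CpG. The LPS and PolyI:C libraries of wild type lay below the unstimulated ones, and in CB2-/- cells the CpG libraries lay just below the unstimulated ones while the others overlapped them. Tnfrsf13b fell in wild type with LPS and IFN-γ (-1.15 ± 0.31, adjusted p = 0.00439) and with PolyI:C (-0.91 ± 0.31, adjusted p = 0.0211), the second call being lost without any 1 of unstimulated wild-type replicates 1 or 2 or wild-type PolyI:C replicates 1 or 3 (-0.86 to -0.80, adjusted p 0.0565 to 0.079). In CB2-/- cells the CpG value was -0.67 ± 0.31 (adjusted p = 0.185).

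Tnfrsf22, Tnfrsf23 and Tnfrsf26 lie side by side on chromosome 7, and Tnfrsf22 and Tnfrsf23 encode decoy receptors of TRAIL. They are related in sequence, and the division of reads among them is uncertain. Tnfrsf23 (chromosome 7, 143665809 to 143685872, minus strand) had 108, 189.9 and 131 in unstimulated replicates 1 to 3, 463, 236 and 187 in unstimulated replicates 4 to 6, 102, 63.5 and 67.5 after LPS and IFN-γ, 25.6, 47.0 and 64.2 after PolyI:C and 61.9, 35.4 and 42.0 after CpG in wild type. Tnfrsf23 in CB2-/- cells had 425, 478 and 419 without stimulus, 275, 255 and 232 after LPS and IFN-γ, 497, 475 and 561 after PolyI:C and 176, 198 and 149 after CpG. Stimulated wild-type libraries lay below all unstimulated ones, and PolyI:C-treated CB2-/- libraries overlapped the unstimulated ones. It fell in wild type, with changes of -0.87 ± 0.31, -1.68 ± 0.31 and -1.60 ± 0.31 (limma adjusted p 0.0287, 9.86e-05 and 2.28e-04), the LPS call being lost without any 1 of unstimulated wild-type replicate 2 or wild-type LPS replicates 2 or 3 (-0.79 to -0.65, adjusted p 0.0918 to 0.142). In CB2-/- cells it fell with CpG (-1.34 ± 0.31, adjusted p = 0.00344), and the values with LPS and IFN-γ and PolyI:C were -0.79 ± 0.31 and 0.21 ± 0.31 (adjusted p = 0.0705 and 0.775). The PolyI:C difference between genotypes was 1.90 ± 0.44 (adjusted p = 0.0022).

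Tnfrsf26 (chromosome 7, 143607659 to 143628722, minus strand) had 96.6, 50.9 and 68.2 in unstimulated replicates 1 to 3, 204, 213 and 132 in unstimulated replicates 4 to 6, 134, 116 and 96.3 after LPS and IFN-γ, 57.1, 119.9 and 119.5 after PolyI:C and 38.1, 16.6 and 25.6 after CpG in wild type. Tnfrsf26 in CB2-/- cells had 315, 303 and 252 without stimulus, 104, 133 and 117 after LPS and IFN-γ, 329, 290.2 and 262 after PolyI:C and 64.3, 34.8 and 40.7 after CpG. CpG gave the lowest levels in both genotypes, with no overlap with unstimulated libraries of the same genotype, and unstimulated replicates 4 to 6 lay above replicates 1 to 3. It fell with CpG in wild-type (-1.42 ± 0.32, limma adjusted p = 0.00104) and CB2-/- cells (-2.66 ± 0.32, adjusted p = 9.27e-07). With LPS and IFN-γ it fell in CB2-/- cells (-1.29 ± 0.32, adjusted p = 0.00366), and the wild-type value was 0.71 ± 0.32 (adjusted p = 0.0807). The LPS difference between genotypes was -2.00 ± 0.45 (adjusted p = 0.00358) against replicates 1 to 3 and -0.65 ± 0.44 (adjusted p = 0.41) against replicates 4 to 6, so it cannot be told apart from the number series.

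Tnfrsf9 (chromosome 4, 150914562 to 150946102, plus strand) encodes 4-1BB, the receptor of Tnfsf9. Wild-type libraries held 2.53, 10.5 and 17.9 in unstimulated replicates 1 to 3, 634, 768 and 622 in unstimulated replicates 4 to 6, 103, 149 and 99.1 after LPS and IFN-γ, 0, 94.4 and 84.0 after PolyI:C and 0, 14.98 and 38.2 after CpG. CB2-/- libraries held 1132, 1485 and 1558 without stimulus, 2172, 2178 and 2426 after LPS and IFN-γ, 2046, 2131 and 2186 after PolyI:C and 1421, 1455 and 1307 after CpG. All libraries of series 2048 to 2188, of either genotype and with or without stimulus, lay above all libraries of series 3012 to 3023. Between the unstimulated wild-type replicates of the 2 series the difference was 6.20 ± 1.16 (limma adjusted p = 7.02e-04) and had the same sign as that of its ligand Tnfsf9. Against replicates 1 to 3 Tnfrsf9 rose with LPS and IFN-γ (3.66 ± 1.16, adjusted p = 0.0143), a call lost without unstimulated wild-type replicate 1 (2.98, adjusted p = 0.0783), and against replicates 4 to 6 the value was -2.54 ± 1.18 (adjusted p = 0.0929). No response in CB2-/- cells passed, the values being 0.71 ± 1.16, 0.62 ± 1.16 and 0.02 ± 1.16. Every CB2-/- library with LPS and IFN-γ or PolyI:C nevertheless lay above the unstimulated CB2-/- ones, and those with CpG overlapped them. The SE comes from the spread of all libraries in the fit, among them wild-type libraries listed at 0. Wild-type PolyI:C and CpG replicate 1, listed at 0, are also the libraries lowest in astrocyte markers of their groups. Without the 3 wild-type libraries lowest in these markers the CpG value was 0.76 (adjusted p = 0.048), against -0.10 ± 1.16 with them. Against replicates 4 to 6 Tnfrsf9 was lower with PolyI:C (-5.07 ± 1.18, adjusted p = 0.00131) and CpG (-6.30 ± 1.18, adjusted p = 1.94e-04) in wild type, and its difference between genotypes was 5.69 ± 1.67 and 6.31 ± 1.67 (adjusted p = 0.014 and 0.0129), against -0.51 ± 1.65 and 0.11 ± 1.65 with replicates 1 to 3. These values cannot be told apart from the number series.

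**Figure D4:**
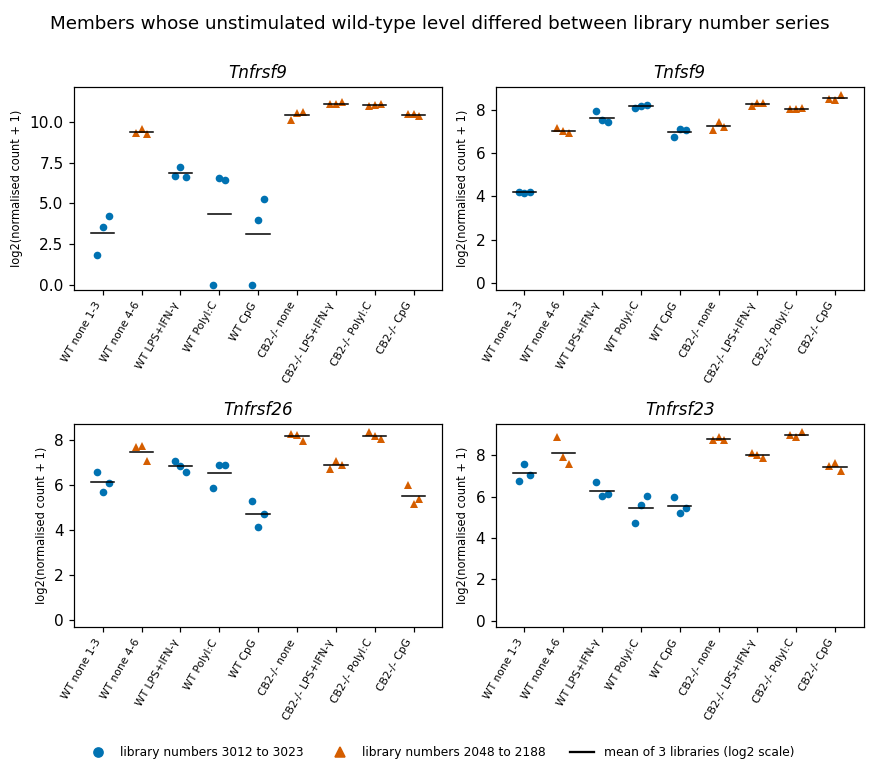
Normalised counts as log2(value + 1) of Tnfrsf9, Tnfsf9, Tnfrsf26 and Tnfrsf23 (vertical axes) in each library by group (horizontal axes), with circles for libraries 3012 to 3023, triangles for 2048 to 2188 and the mean of 3 libraries as a line. Unstimulated wild-type replicates 1 to 3 and 4 to 6, which share genotype and treatment, are 6.20 log2 units apart for Tnfrsf9 and 2.84 for Tnfsf9.

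In all, 4 members were higher and 2 lower in unstimulated wild-type replicates 4 to 6 than in replicates 1 to 3 (6.33% and 5.66% of all genes, 12% in all). The higher ones were Tnfsf9, Tnfrsf9, Tnfrsf26 and Tnfrsf23, and the lower ones Fas (-1.01, limma adjusted p = 0.0276) and Tnfrsf1a (-0.36, adjusted p = 0.0121). Calls were lost for Fas without any 1 of unstimulated wild-type replicates 1, 2 or 5 (-0.97 to -0.56, adjusted p 0.0819 to 0.235), for Tnfrsf1a without any 1 of unstimulated wild-type replicates 2 or 5 (-0.33 to -0.31, adjusted p 0.0533 to 0.0534) and for Tnfrsf23 without any 1 of unstimulated wild-type replicates 1, 3, 4 or 5 (0.59 to 1.08, adjusted p 0.06 to 0.24).

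The remaining receptors had low values. Tnfrsf22 ran from 2.79 to 76.7 and was lower with LPS and IFN-γ in wild type (-1.67, limma adjusted p = 0.0288), a call lost without any 1 of unstimulated wild-type replicates 1, 2 or 3 or wild-type LPS replicate 3 (-1.71 to -0.90, adjusted p 0.0555 to 0.249). Ngfr, which encodes the p75 neurotrophin receptor, ran from 0 to 25.4, and Tnfrsf10b, which encodes a TRAIL death receptor, from 0 to 42.1. Tnfrsf11b, which encodes osteoprotegerin, a soluble decoy of RANKL, ran from 0 to 34.1, and Tnfrsf19, which encodes TROY, from 0 to 28.9. Tnfrsf4, which encodes OX40, and Tnfrsf18, which encodes GITR, ran from 0 to 16.2 and from 0 to 33.3. In the 6 comparisons of a stimulus, the 3 differences between genotypes and the unstimulated comparison, limma called none of these 6, and 4 of the 60 values had an unadjusted p under 0.05 (smallest adjusted p 0.0623). Against replicates 4 to 6, Tnfrsf11b was called higher with LPS and IFN-γ (2.70 ± 1.06, adjusted p = 0.0454) and Tnfrsf19 lower with PolyI:C (-2.50 ± 0.94, adjusted p = 0.0362) in wild type. Members under the filter were Ltb (at most 10.2), Tnfsf18 (8.41), Tnfsf13os (2.93), Cd27 (9.01), Tnfrsf13c (2.89) and Tnfrsf25 (7.001), given with their highest normalised count in any library.

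Read as ligand and receptor pairs, partners in wild-type cells changed in the same direction in some cases and in opposite ones in others. TNF and both its receptors rose with each stimulus, the LPS rise of Tnfrsf1a not passing with quantile scaling. Tnfsf12 fell with each stimulus while its receptor Tnfrsf12a had 1.64, 0.08 and 0.04, of which the first passed, a call lost without single libraries. Tnfsf14 fell and its receptors Tnfrsf14 and Ltbr rose, but several of these calls were lost without single libraries. They were the LPS call of Tnfsf14, the PolyI:C and CpG calls of Tnfrsf14 and the PolyI:C call of Ltbr. The LPS and PolyI:C values of Ltbr also did not pass with quantile scaling. With PolyI:C Tnfsf8 and its receptor Tnfrsf8 both rose, and with CpG Tnfsf8 was called lower, being listed at 0, and Tnfrsf8 higher, of which the first call depends on the controls and the second on single libraries, as given above. Tnfsf10 rose with LPS and IFN-γ and with PolyI:C, while its receptor Tnfrsf10b had 1.35 and -0.94 (limma adjusted p 0.237 and 0.422) and the decoy Tnfrsf23 fell. The LPS call of Tnfrsf23 was lost without single libraries. With CpG Tnfsf10 and Tnfrsf23 both fell, Tnfsf10 from low values to values at or near 0, and Tnfrsf10b had 0.82 (adjusted p = 0.51). Tnfsf15 rose without a receptor that passed the filter. With PolyI:C Tnfsf13b and its receptor Tnfrsf13b both fell, calls that were each lost without single libraries. With LPS and IFN-γ Tnfrsf13b fell (-1.15) and Tnfsf13b had -0.15 (adjusted p = 0.843), and with CpG Tnfsf13b fell (-1.81) and Tnfrsf13b had -0.12 (adjusted p = 0.818).

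Stimuli were also compared with each other in wild-type cells. These values use no unstimulated library, but their SE and p-values rest on the spread of all 27 libraries in the fit. Between LPS and IFN-γ and CpG, 15 members were higher and 3 lower with LPS and IFN-γ (19.7% and 13.1% of all genes, 32.8% in all), among them Tnfsf10 (8.39 ± 0.46, limma adjusted p = 3.50e-13) and Tnfsf15 (8.33 ± 0.74, adjusted p = 2.25e-09). Both were at or near 0 in the CpG libraries, so these sizes depend on the pseudocount and were 6.91 for Tnfsf10 and 6.97 for Tnfsf15 with a pseudocount of 5. The lower ones were Tnfrsf11a (-1.74 ± 0.18, adjusted p = 2.87e-08), Tnfrsf22 and Tnfrsf13b. Calls were lost for Tnfrsf22 without any 1 of wild-type LPS replicate 3 or wild-type CpG replicates 1 or 3 (-1.59 to -0.82, adjusted p 0.0736 to 0.325) and for Tnfrsf13b without any 1 of wild-type LPS replicate 3 or wild-type CpG replicate 1 (-0.85 to -0.84, adjusted p 0.0657 to 0.0729). With only the compared groups in the fit 11 members were called, and the share of all genes in that fit was not computed. Between PolyI:C and CpG, 10 members were higher and 0 lower with PolyI:C by limma (17.6% and 12.5% of all genes, 30.1% in all), and 2 were lower at an unadjusted p under 0.05. Tnfsf10 (8.45 ± 0.46), Tnfsf15 (6.54 ± 0.74) and Tnfrsf8 (3.30 ± 0.60) were among the higher ones, with a largest adjusted p of 1.33e-04; with a pseudocount of 5 the first 2 values were 6.97 and 5.20. Tnfsf8, listed at 0 in the CpG libraries, was also called (adjusted p = 6.18e-07).

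LPS and IFN-γ against PolyI:C separated fewer members, with 3 higher and 2 lower with LPS and IFN-γ (5.35% and 3.91% of all genes, 9.26% in all). Tnf (1.06 ± 0.21, limma adjusted p = 0.00103), Tnfrsf21 (1.10 ± 0.24, adjusted p = 0.00371) and Fas (0.95 ± 0.30, adjusted p = 0.0472) were higher, and Tnfrsf11a (-1.43 ± 0.18, adjusted p = 5.04e-06) and Tnfsf9 (-0.53 ± 0.16, adjusted p = 0.0321) lower. The Fas call was lost without any 1 of wild-type LPS replicates 1, 2 or 3 or wild-type PolyI:C replicates 1, 2 or 3 (0.79 to 1.05, adjusted p 0.0611 to 0.196). The Tnfsf9 call was lost without any 1 of wild-type LPS replicates 2 or 3 or wild-type PolyI:C replicates 2 or 3 (-0.52 to -0.43, adjusted p 0.081 to 0.169). Among other alternatives, it was also lost with only the compared groups in the fit and without the series term (limma adjusted p 0.112 and 0.721). Levels of Tnfsf10 after these stimuli differed by -0.05 ± 0.46 and those of Tnfrsf1b by -0.21 ± 0.14 (adjusted p = 0.978 and 0.442).

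Genotypes differed in the response of 15 of 31 members to PolyI:C, 10 with a lower and 5 with a higher value in CB2-/- cells (13.9% and 10.8% of all genes, 24.8% in all). The lower ones were Tnf, Lta, Tnfsf9, Tnfsf10, Tnfsf15, Fas, Tnfrsf1a, Tnfrsf1b, Tnfrsf8 and Tnfrsf11a, and the higher ones were Tnfsf12, Tnfsf13, Tnfsfm13, Tnfrsf21 and Tnfrsf23. Each difference shares libraries with the responses given above. For LPS and IFN-γ 3 members were lower (Tnf, Tnfsf9 and Tnfrsf26) and 0 higher by limma (8.36% and 3.98% of all genes, 12.3% in all), and 2 were higher at an unadjusted p under 0.05. Of these, the Tnf call also passed against unstimulated wild-type replicates 4 to 6. Without the 3 wild-type libraries lowest in astrocyte markers 8 members were called, and the share of all genes under that setting was not computed. For CpG 4 were lower (Tnf, Tnfsf9, Tnfrsf1a and Tnfrsf11a) and 3 higher (Tnfsf13, Tnfsfm13 and Tnfrsf8; 5.66% and 6.11% of all genes, 11.8% in all). The median difference of the members was -0.09, -0.34 and 0.26 for LPS and IFN-γ, PolyI:C and CpG, and that of all genes -0.02, 0.08 and 0.10. The Tnfsf13 difference was lost for PolyI:C without any 1 of wild-type PolyI:C replicates 1 or 2, unstimulated CB2-/- replicates 1 or 3 or CB2-/- PolyI:C replicates 1 or 3 (adjusted p 0.0511 to 0.0875), and for CpG without CB2-/- CpG replicate 2 (adjusted p = 0.0536). Neither passed against replicates 4 to 6 (adjusted p = 0.162 and 0.0838). Without stimulus 2 members, Tnf and Tnfsf10, were higher in CB2-/- cells and 0 lower by limma (6.25% and 3.65% of all genes, 9.9% in all), with 2 lower at an unadjusted p under 0.05. That count was 7 without the 3 wild-type libraries lowest in astrocyte markers and 6 without unstimulated wild-type replicate 4, settings for which the share of all genes was not computed.

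**Figure D5:**
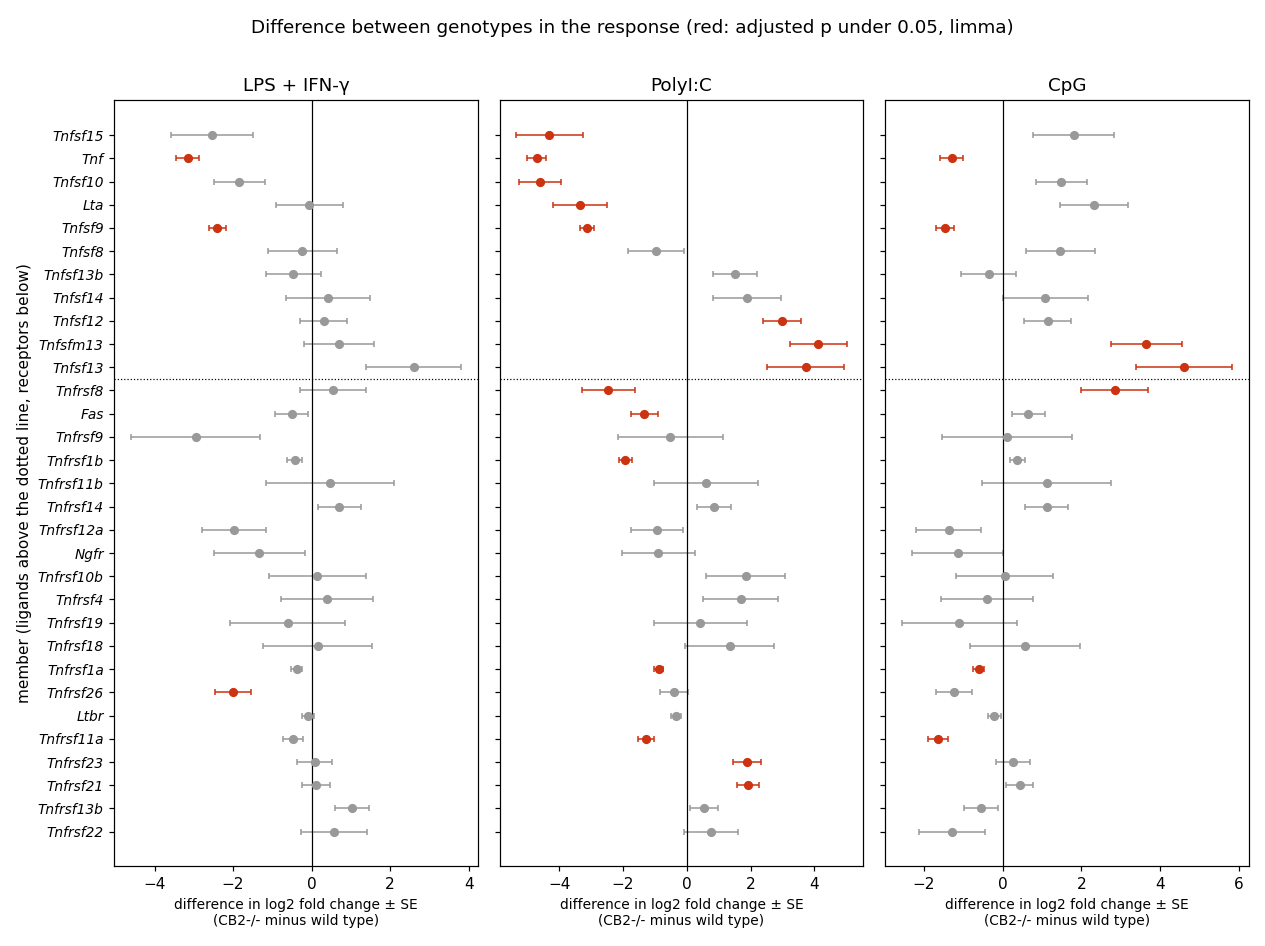
Difference between genotypes in the log2 fold change (CB2-/- minus wild type, horizontal axes, point ± SE) of the 31 tested members (rows) for each stimulus; red marks an adjusted p under 0.05 (limma). With PolyI:C 10 members lie at the left of 0 and 5 at the right in red, with LPS and IFN-γ 3 at the left, and with CpG 4 at the left and 3 at the right.

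Several members lie on the chromosome of Cnr2. On chromosome 4 there were 9 members, 8 of them tested, at distances of 9.32 Mb (Tnfrsf1b), 9.37 Mb (Tnfrsf8), 15.02 Mb (Tnfrsf9), 16.22 Mb (Tnfrsf25), 19.03 Mb (Tnfrsf14), 20.12 Mb (Tnfrsf4), 20.13 Mb (Tnfrsf18), 72.06 Mb (Tnfsf8) and 72.17 Mb (Tnfsf15) from Cnr2. None of the 8 was called between the unstimulated genotypes by limma, where 9.9% of all genes were, and 1 had an unadjusted p under 0.05 (smallest adjusted p 0.131). In the PolyI:C difference between genotypes 3 of the 8 were called (Tnfrsf1b, Tnfrsf8 and Tnfsf15), against 24.8% of all genes, and in the CpG difference 1 (Tnfrsf8), against 11.8%. For LPS and IFN-γ limma called 0 of the 8 in the difference between genotypes (smallest adjusted p 0.125, for Tnfsf15), against 12.3% of all genes. Between the unstimulated genotypes the values for Tnfrsf1b, Tnfrsf8 and Tnfrsf14 were -0.03 ± 0.14, 1.22 ± 0.60 and -0.93 ± 0.38. There, every CB2-/- library of Tnfrsf8, Tnfrsf9 and Tnfsf8 lay above wild-type replicates 4 to 6, Tnfsf8 at low values. The other tested members on this chromosome overlapped between these libraries. The share of all genes whose libraries separate in this way was not computed, so the separation is not read as a trait of this chromosome. How much sequence around Cnr2 differs between the strains was not analysed here.

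Other genes of the pathway (adaptors and ubiquitin ligases, the death branch, the noncanonical NF-κB branch, feedback inhibitors, shedding enzymes and relatives outside the rule) were read from a list of 43, of which 39 were tested. In wild-type cells 25 were higher and 2 lower with LPS and IFN-γ (21.7% and 18% of all genes), 19 and 3 after PolyI:C (21.2% and 19.9%), and 15 and 7 with CpG (16.5% and 19.6%), with median log2 fold changes of 0.91, 0.43 and 0.10. For CB2-/- cells, 22 were higher and 1 lower with LPS and IFN-γ (12.8% and 10.9% of all genes), 14 and 1 after PolyI:C (5.11% and 3.44%), and 15 and 1 with CpG (6.82% and 7.44%). Traf1, an adaptor that NF-κB induces, rose by 7.84 ± 0.29, 7.62 ± 0.29 and 5.06 ± 0.29 in wild-type cells and by 4.15 ± 0.29, 2.15 ± 0.29 and 3.48 ± 0.29 in CB2-/- cells (largest limma adjusted p 1.89e-05). Mlkl, the executor of necroptosis, rose with LPS and IFN-γ and with PolyI:C in wild-type (5.40 ± 0.48 and 5.13 ± 0.48) and CB2-/- cells (2.67 ± 0.48 and 1.63 ± 0.48, adjusted p 1.50e-04 and 0.0338). Tnfaip3, which encodes the ubiquitin-editing brake A20, rose in wild type by 3.94 ± 0.21 and 4.04 ± 0.21 with these stimuli, and Tnip3, an A20-binding inhibitor, by 4.76 ± 0.25 with CpG (largest adjusted p 3.41e-13).

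Of the same 39 genes, 15 had a lower and 2 a higher response to PolyI:C in CB2-/- cells (13.9% and 10.8% of all genes), and the values were -5.47 ± 0.41 for Traf1, -3.49 ± 0.68 for Mlkl, -3.04 ± 0.36 for Tnip3 and -2.91 ± 0.29 for Tnfaip3 (largest limma adjusted p 3.98e-04). For LPS and IFN-γ 7 genes were called, each with a lower response (8.36% of all genes), including Traf1 (-3.69 ± 0.41) and Bcl2l1, an inhibitor of apoptosis (-1.77 ± 0.22). For CpG 3 were lower and 3 higher (5.66% and 6.11% of all genes), the latter including Nfkbie, an inhibitor of NF-κB (2.21 ± 0.26). Without stimulus 13 of the genes were called, each higher in CB2-/- cells (6.25% of all genes), with Mlkl at 2.41 ± 0.48, Traf1 at 1.31 ± 0.29 and Traf2 at 0.89 ± 0.18. Between the number series in unstimulated wild type, Traf1 (1.66 ± 0.29, limma adjusted p = 2.80e-04), Tnfaip3 (0.99 ± 0.21, adjusted p = 0.00175) and Traf6, a further TRAF adaptor (0.75 ± 0.18, adjusted p = 0.00722), were higher in replicates 4 to 6, and Tnip3 was lower (-0.92 ± 0.25, adjusted p = 0.0166).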

How the data were processed

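RNA of 27 libraries was sequenced in single-end reads of 75 bp, on libraries made with TruSeq v2 for the HiSeq1500 or SMART-Seq2 for the NextSeq500, per the labels' protocols, which do not say which library had which. The authors deposited normalised counts per gene (an abundance signal that need not be whole) and a batch-corrected table on a log2 scale, used only as an alternative. The submitters' processing notes name CASAVA 1.8, kallisto and DESeq2; the sources used here do not give their order, the genome build or the annotation. Low values did not resolve into whole reads, so no count model was fitted. Gene positions are from GENCODE vM21 (GRCm38), matched by gene ID for all 37 members. Identity of libraries was checked within each group over 27 pairs, and none was merged.

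Tests covered the 14668 genes that reached 10 normalised counts in 3 or more libraries, on log2(value + 1) with limma 3.58.1 in R 4.3.3, in 1 fit over all libraries with group and library number series as terms and a variance trend on mean level, with Benjamini-Hochberg adjustment over all genes and a threshold of 0.05. The script was tested on simulated data. Members were given in every library where they passed the filter, reached a mean of at least 100 in at least 1 group and were called in at least 1 of the 10 comparisons between stimuli and controls or between genotypes; of the pathway list, up to 4 called genes a comparison with the largest change were named. The members and lists were chosen with earlier results of these data known. Alternatives were other pseudocounts, filters, quantile scaling, no series term, fewer groups in the fit, library weights, no variance trend, the batch-corrected table and leaving out each library. Leaving out libraries low in astrocyte markers or rich in 3 gene models, and taking replicates 4 to 6 as controls, were added after seeing the data.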

Additional observations from a re-analysis of the deposited data

Results flagged for a closer look

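In 3 members, 1 of the 6 unstimulated wild-type libraries lay far from the other 5 by Dixon's gap at the 95% level, which chance gives in about 1 in 20 groups. These were Tnfrsf8 in replicate 1 (13.7), Tnfrsf23 in replicate 4 (463) and Ngfr in replicate 5 (12.04). The 6 libraries come from both number series.

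The responses of the following members differed between genotypes in the test of the difference itself (limma, adjusted p under 0.05), given as CB2-/- minus wild type in log2 fold change. With LPS and IFN-γ these were Tnf (-3.16), Tnfsf9 (-2.40) and Tnfrsf26 (-2.00). With PolyI:C the lower responses were those of Tnf (-4.72), Tnfsf10 (-4.60), Tnfsf15 (-4.31), Lta (-3.35), Tnfsf9 (-3.14), Tnfrsf8 (-2.46), Tnfrsf1b (-1.93), Fas (-1.33), Tnfrsf11a (-1.28) and Tnfrsf1a (-0.88). The higher ones with PolyI:C were Tnfsfm13 (4.12), Tnfsf13 (3.72), Tnfsf12 (2.97), Tnfrsf21 (1.93) and Tnfrsf23 (1.90). With CpG they were Tnf (-1.29), Tnfsf9 (-1.46), Tnfrsf11a (-1.65), Tnfrsf1a (-0.61), Tnfsf13 (4.61), Tnfsfm13 (3.65) and Tnfrsf8 (2.85). The values of Lta, listed at 0 in all unstimulated libraries, of Tnfsf13, at or near 0 in stimulated wild-type libraries, of Tnfsf15, at or near 0 in unstimulated ones, and of Tnfsfm13 with CpG depend on the pseudocount and are not exact sizes of a change. Genotype and number series are the same split in stimulated cells and cannot be told apart in any of these values.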

How the results depend on the processing

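Of 167 member and comparison pairs called, 98 stayed called under every alternative that gave them a value. The number of members called (all of 31) moved by over 1.5 times as follows, and the cause was not tested. The share of all genes called was computed for the main fit only, so whether these moves are particular to the members is not known. For the LPS and IFN-γ difference between genotypes it was 3, and 5 with pseudocount 5, 5 with quantile scaling, 9 with only the groups compared, 11 with library weights, 11 with the batch-corrected table, 8 without the 3 wild-type libraries lowest in astrocyte markers, 5 against replicates 4 to 6, and 3 to 5 leaving out 1 library (5 without unstimulated wild-type replicate 2). For the unstimulated genotypes it was 2, and 5 with quantile scaling, 6 without the series term, 9 with weights, 13 with the batch-corrected table, 7 without the low-marker libraries, and 2 to 6 leaving out 1 library (6 without wild-type replicate 4). Leaving out libraries over 5% in 3 gene models gave 8, but this removes wild-type replicates 4 to 6. It sets CB2-/- cells against wild-type replicates 1 to 3 of the other number series with no series term, and so is another comparison. In CB2-/- cells PolyI:C gave 7, and 12 with weights, 11 with the batch-corrected table and 3 without libraries over 5%, which also took CpG from 15 to 9. With LPS and IFN-γ, where 17 members were called in the main fit, leaving out those libraries keeps 1 stimulated CB2-/- library, so no count is given. LPS and IFN-γ against PolyI:C gave 5, and 3 with no filter, 3 without the series term, 10 with weights, 8 with the batch-corrected table and 3 to 4 leaving out 1 library (3 without wild-type LPS replicate 2 or 3). LPS and IFN-γ against CpG gave 18, and 11 with only the groups compared. The number series comparison gave 6, and 3 to 6 leaving out 1 library (3 without unstimulated wild-type replicate 5).

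Between the 2 sets of unstimulated wild-type controls, 28 of 186 values turned sign, 21 of them called against neither set. Against replicates 4 to 6 the other 7 were those of Tnfrsf9 with LPS and IFN-γ (-2.54 ± 1.18) and PolyI:C (-5.07 ± 1.18) in wild type and its PolyI:C difference (5.69 ± 1.67), of Tnfrsf26 with PolyI:C (-0.93 ± 0.31), and of Tnfsf9 with CpG (-0.077) and its LPS (0.43 ± 0.21) and CpG (1.38 ± 0.21) differences. Tnfrsf9 with CpG turned to 0.76 without the low-marker libraries. Tnfrsf1a turned with quantile scaling in LPS and IFN-γ against CpG (-0.38) and PolyI:C against CpG (-0.28), where that scaling moved the median of all genes by -0.28 and -0.15; it moved it by -0.11 and 0.14 for LPS and IFN-γ and for CpG in wild type and by -0.12 for the CpG difference. No paired analysis was possible because the labels give library numbers and no replicate numbers shared between groups. Depth in reads is unknown, and no counting error is given.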
